A study of Homo sapiens with 12 samples.

Results

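The 6 genes described here are OAS1, OAS3, OAS2, OASL, P2RX7 and P2RX4, all on chromosome 12, out of 23497 genes in the deposited count table. OAS1, OAS3 and OAS2 lie side by side, and OASL, P2RX7 and P2RX4 form a second run of adjacent genes further along the same chromosome. The genes were selected on their counts in these 12 libraries across the 4 groups, so their levels and differences are given as a description, without a test. The libraries measured polyadenylated RNA of WM1366, an established human melanoma line that carries mutant NRAS, in 4 groups of 3 libraries. The sensitive group is the WM1366 parent line kept in DMSO. The EB-resistant, VC-resistant and DT-resistant groups are daughter lines of it kept in encorafenib/binimetinib, vemurafenib/cobimetinib and dabrafenib/trametinib, each pair being a BRAF inhibitor and a MEK inhibitor. RNA was taken 72 h after seeding, and the 3 libraries of a group, numbered 2, 5 and 6, came from independent experiments. Each drug pair is represented by 1 resistant line, and resistance, the presence of drug and culture history cannot be told apart.

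OAS1, OAS2 and OAS3 are oligoadenylate synthetases, interferon-induced enzymes that bind double-stranded RNA and then make short oligoadenylates. These oligoadenylates are a second messenger that leads to the cutting of viral and cellular RNA. OASL is a related protein without this enzyme activity that enhances signalling by the RNA sensor RIG-I. P2RX7 and P2RX4 encode P2X receptors, membrane cation channels opened by ATP outside the cell. P2RX7 needs high ATP and is best known for driving the NLRP3 inflammasome and the release of interleukin 1 beta in macrophages, and P2RX4 responds to lower ATP and is found largely on lysosomes.

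The promoter windows of OAS1 and OAS3 are shown because the OAS genes are textbook targets of the interferon-stimulated response element (ISRE). That of P2RX7 is shown beside them as a gene outside that family. P2RX7 lies next to OASL, in the other run, and not next to OAS1 or OAS3. Each run holds the 250 bases before the RefSeq start of the gene (GRCh38.p14, plus strand), 5′ to 3′, and capitals mark the ISRE core, spelled GAAA, any 2 bases, GAAA, or a more closely spaced form, GAAA, any 1 base, GAAA, both searched on both strands. The second form was chosen after the sequences were seen.
OAS1, chr12:112906712-112906961: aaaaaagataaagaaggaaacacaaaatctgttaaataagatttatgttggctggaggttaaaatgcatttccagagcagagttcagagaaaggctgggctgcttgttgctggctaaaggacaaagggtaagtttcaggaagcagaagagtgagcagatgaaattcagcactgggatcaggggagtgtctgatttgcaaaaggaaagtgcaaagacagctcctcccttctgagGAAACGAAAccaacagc
OAS3, chr12:112938224-112938473: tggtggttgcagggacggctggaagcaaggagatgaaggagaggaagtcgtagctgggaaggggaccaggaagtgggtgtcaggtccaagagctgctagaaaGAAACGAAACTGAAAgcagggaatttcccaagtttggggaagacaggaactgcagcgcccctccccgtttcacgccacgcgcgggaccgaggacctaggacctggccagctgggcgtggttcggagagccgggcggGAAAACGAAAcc
P2RX7, chr12:121132626-121132875: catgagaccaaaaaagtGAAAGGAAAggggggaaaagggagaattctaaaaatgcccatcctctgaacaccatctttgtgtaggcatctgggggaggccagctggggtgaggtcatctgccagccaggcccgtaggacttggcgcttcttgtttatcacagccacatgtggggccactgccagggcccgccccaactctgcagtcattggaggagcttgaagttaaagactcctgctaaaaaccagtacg
In OAS3 the core matched from -143 to -134 and from -12 to -3 relative to the start, and the first of these overlapped a match of the closer form from -148 to -140. In OAS1 the closer form matched from -17 to -9. The core letters were not in the OAS1 window. In P2RX7 the closer form matched once, from -233 to -225, and the P2RX4 window (chr12:121209879-121210128) held neither form. The core was present in 3.02% of all 35116 RefSeq promoter windows of this length, and the closer form in 2.69%. Among 43 windows of 30 other antiviral interferon-stimulated genes, 26 held the core and 14 the closer form. Among 11 windows of 9 other purinergic receptor genes, 0 held the core and 2 the closer form. The interferon gamma activated site, spelled TTC, any 3 bases, GAA, which reads the same on both strands, matched in OAS1 from -168 to -160 and in 6.57% of all windows. A match is a string of letters and was not tied to binding by any measurement in this series. OAS2 and OASL had no entry in the promoter table.

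In the deposited coordinates (hg38), OAS1 (ENSG00000089127) spans 112905856 to 112933219, OAS3 (ENSG00000111331) 112938051 to 112976460 and OAS2 (ENSG00000111335) 112978395 to 113011723, all on the plus strand. The deposited models of OAS1 and OAS3 start before the printed windows. OASL (ENSG00000135114) spans 121017763 to 121039242 on the minus strand, P2RX7 (ENSG00000089041) 121132819 to 121188032 and P2RX4 (ENSG00000135124) 121209861 to 121234106 on the plus strand. RefSeq gene bounds leave 5.26 kb between OAS1 and OAS3, 5.27 kb between OAS3 and OAS2, 93.6 kb between OASL and P2RX7 and 22.1 kb between P2RX7 and P2RX4. The runs are separated by 8006 kb between OAS2 and OASL. GENCODE 29 annotates an antisense gene, AC004551.1, from 112907628 to 113017751 on the minus strand across OAS1, OAS3 and OAS2. It has no row in the count table. The strand setting of the counting is not given in the sources used here, so sense and antisense reads at the OAS genes may not have been separated.

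Library totals ran from 40491309 to 54495132 counts, and 17114 genes had enough counts to be tested. Every one of the 6 genes passed that filter on low counts, with at least 37 reads in each library. Levels below are the authors' normalised counts, which are read counts divided by a size factor per library. DT-resistant replicate 2 stood apart from the other libraries of its group for OAS1, OAS3 and OAS2, and values that moved by over 1.5 times without it are also given without it. Of the melanoma markers in the table, MITF was abundant and PMEL had 9 to 43 reads. CSPG4 averaged 3431 normalised counts in sensitive, 5110 in EB-, 9845 in VC- and 3605 in DT-resistant cells. In the same order NES averaged 207, 44, 3.1 and 1, and TYRP1 1.3, 27.0, 1.8 and 6.2. DCT and S100A1 had at most 13 reads. SOX10, MLANA, TYR and S100B have no row in the table used. The summed level of 6 leukocyte markers was 46.9 to 72.3 normalised counts in the sensitive and EB-resistant libraries and at most 38.6 in the VC-resistant and DT-resistant ones, and that of 5 endothelial markers was 223 to 342 in the DT-resistant libraries against 57.4 to 170.4 elsewhere. The part of these markers in the results was not tested. Single markers went both ways. The leukocyte marker PTPRC was 23.4 to 49.2 normalised counts in the EB-resistant libraries against at most 1 in sensitive ones, while LYZ was at 0 in every EB-resistant library. CSF1R averaged 26.8 in sensitive, 8.67 in EB-, 4.87 in VC- and 7.1 in DT-resistant cells. The endothelial marker VWF averaged 45.1 in sensitive, 51.5 in EB-, 133 in VC- and 278 in DT-resistant cells, while KDR was at 0 in every VC-resistant library. PECAM1, also endothelial, averaged 22.5, 1.93, 0.4 and 1.7 in the same order of groups. The epithelial marker KRT18 averaged 13406 in sensitive and 2346 in DT-resistant cells, and CDH1 was at 0 in every DT-resistant library.

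OAS1 was low in the sensitive line and higher in all 3 resistant lines. Its normalised counts in replicates 2, 5 and 6 were 64.8, 63.9 and 91.4 in sensitive cells. They were 690.3, 450.5 and 484.7 in EB-resistant cells and 605.8, 694.8 and 602.9 in VC-resistant cells. In DT-resistant cells they were 2615.5, 1293.1 and 1215.0. The lowest resistant library was well above the highest sensitive one, EB-resistant and VC-resistant libraries overlapped, and every DT-resistant library was above both. The sensitive mean was 73.4 ± 15.6 (SD, n = 3), against 542 ± 129.7 for EB-resistant, 635 ± 52.2 for VC-resistant and 1708 ± 787 for DT-resistant cells.

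OAS2, which makes oligoadenylates as a dimer, was likewise lowest in the sensitive and highest in the DT-resistant line. Sensitive libraries had 254.2, 175.2 and 217.9 normalised counts. EB-resistant libraries had 1620.7, 1010.8 and 926.6, and VC-resistant libraries 1282.1, 1085.0 and 937.3. DT-resistant libraries had 9070.0, 3488.5 and 3384.4. EB-resistant and VC-resistant values interleaved, and replicate 2 was the highest library in each of the 4 groups. The means, in the same order of groups, were 216 ± 39.5, 1186 ± 379, 1102 ± 173 and 5314 ± 3253 (SD, n = 3).

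OAS3, the largest synthetase of the family, was already well expressed in the sensitive line, with 1393.5, 1743.8 and 1834.7 normalised counts. EB-resistant libraries had 3247.1, 2550.7 and 2457.6, VC-resistant libraries 3746.6, 3812.7 and 3478.9, and DT-resistant libraries 13015.5, 6521.2 and 5411.2. The 4 groups did not overlap, and they ranked from sensitive through EB-resistant and VC-resistant to DT-resistant. The means were 1657 ± 233, 2752 ± 431, 3679 ± 177 and 8316 ± 4108 (SD, n = 3).

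OASL differed from the 3 synthetases in its order, with the VC-resistant line highest. Sensitive libraries had 113.6, 118.6 and 214.9 normalised counts, EB-resistant libraries 457.0, 298.1 and 417.5, VC-resistant libraries 513.3, 689.7 and 608.9, and DT-resistant libraries 488.4, 401.9 and 506.4. Each VC-resistant library was above each EB-resistant and each DT-resistant library, while EB-resistant and DT-resistant libraries overlapped. The means were 149 ± 57.1, 391 ± 82.7, 604 ± 88.3 and 466 ± 55.9 (SD, n = 3).

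P2RX7 was low in the sensitive line, with 63.8, 46.5 and 37.2 normalised counts. EB-resistant libraries had 455.1, 511.1 and 318.3, VC-resistant libraries 782.2, 600.0 and 376.3, and DT-resistant libraries 934.3, 935.8 and 1037.3. All DT-resistant libraries were above all others, and the EB-resistant and VC-resistant libraries overlapped. The means were 49.2 ± 13.5, 428 ± 99.2, 586 ± 203 and 969 ± 59.0 (SD, n = 3), so the DT-resistant replicates of P2RX7 were close together where those of the OAS enzymes were spread.

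P2RX4 had 257.2, 150.6 and 143.6 normalised counts in the sensitive libraries. EB-resistant libraries had 520.6, 495.0 and 420.5, VC-resistant libraries 1206.7, 871.2 and 769.7, and DT-resistant libraries 1439.5, 982.5 and 1090.5. VC-resistant and DT-resistant libraries overlapped, and both lay above all EB-resistant libraries, which lay above all sensitive ones. The means were 184 ± 63.7, 479 ± 52.0, 949 ± 229 and 1171 ± 239 (SD, n = 3).

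**Figure D1:**
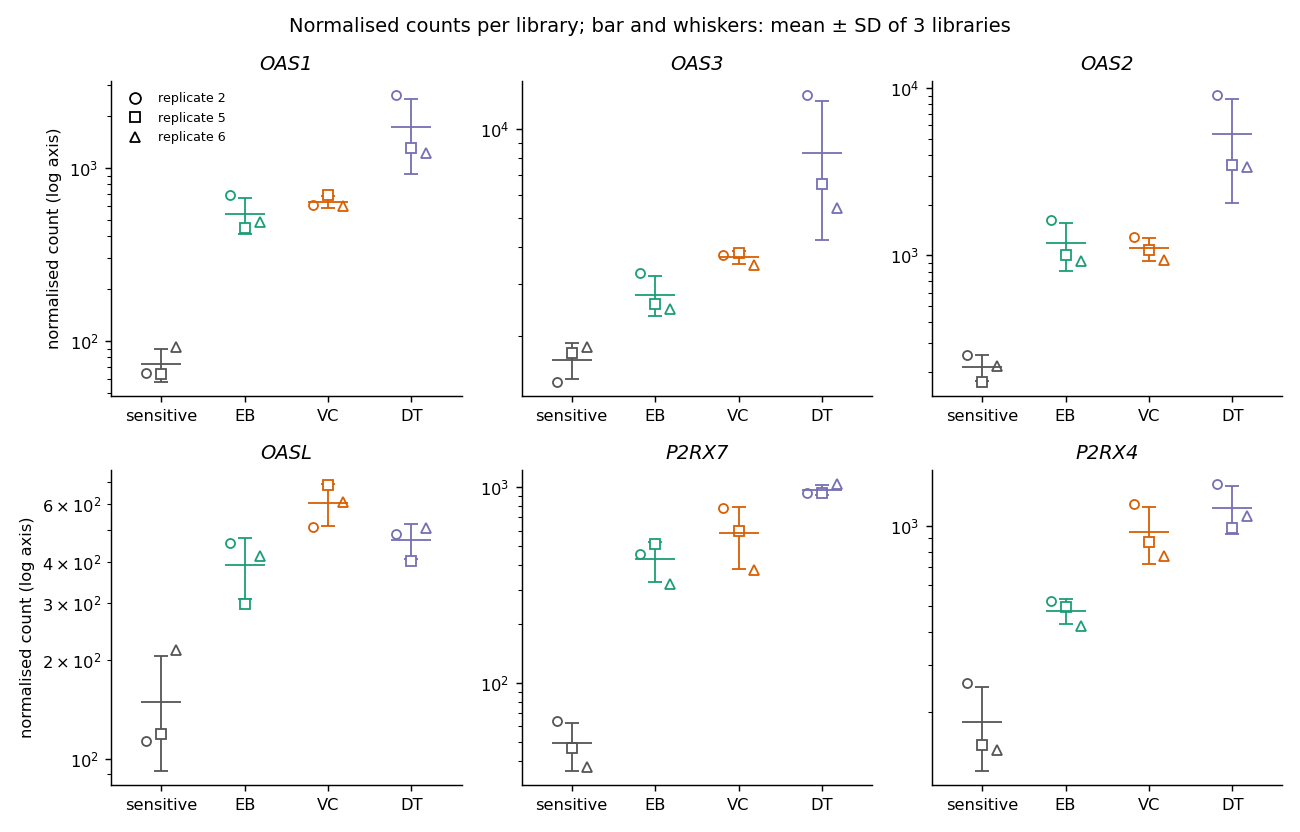
Normalised counts (vertical log axes) of the 6 genes in each library, by group (horizontal axis: sensitive, EB, VC and DT for the resistant lines); symbols are replicates 2, 5 and 6, and horizontal bars with whiskers are mean ± SD of 3 libraries. All resistant libraries lie above all sensitive libraries for each gene, and DT-resistant replicate 2 is the highest library for OAS1 (2615.5), OAS3 (13015.5) and OAS2 (9070.0).

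Set against the sensitive line, the fitted differences of OAS1 and P2RX7 were among the 3 largest in each line, and the smallest was that of OAS3 in the EB- and VC-resistant lines and of OASL in the DT-resistant line. In EB-resistant cells the log2 fold changes were 2.88 ± 0.32 (SE) for OAS1, 2.45 ± 0.43 for OAS2, 0.72 ± 0.29 for OAS3, 1.382 ± 0.23 for OASL, 3.11 ± 0.28 for P2RX7 and 1.37 ± 0.24 for P2RX4. In VC-resistant cells they were 3.11 ± 0.32 for OAS1, 2.35 ± 0.43 for OAS2, 1.15 ± 0.29 for OAS3, 2.02 ± 0.23 for OASL, 3.56 ± 0.29 for P2RX7 and 2.36 ± 0.24 for P2RX4. In DT-resistant cells they were 4.53 ± 0.33 for OAS1, 4.62 ± 0.46 for OAS2, 2.32 ± 0.30 for OAS3, 1.64 ± 0.23 for OASL, 4.29 ± 0.29 for P2RX7 and 2.66 ± 0.24 for P2RX4. P2RX7 had the largest difference of the 6 genes in the EB-resistant and VC-resistant lines, and OAS2 in the DT-resistant line. Without DT-resistant replicate 2 the DT-resistant order was P2RX7 at 4.33, OAS1 at 4.10 and OAS2 at 3.997. These 3 comparisons share the sensitive libraries.

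Counted by the threshold used for all genes (adjusted p below 0.05), 5 of the 6 were higher in EB-resistant cells, where 28.5% of all tested genes were called higher. All 6 were higher in VC-resistant cells, against 27.6% of all genes, and all 6 in DT-resistant cells, against 29.8%. OAS3 in EB-resistant cells was the exception, at 1.65-fold, and 6 of 6 were past the threshold there when DESeq2 was used, when only these 2 groups were fitted, or without DT-resistant replicate 2 or 6. The 3 libraries of each resistant line lay above the 3 sensitive ones for 6 of 6 genes, which held for 33.4%, 30.7% and 32.3% of all genes in the EB-, VC- and DT-resistant lines. Because the genes were picked with these values known, nothing is read from these counts.

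**Figure D2:**
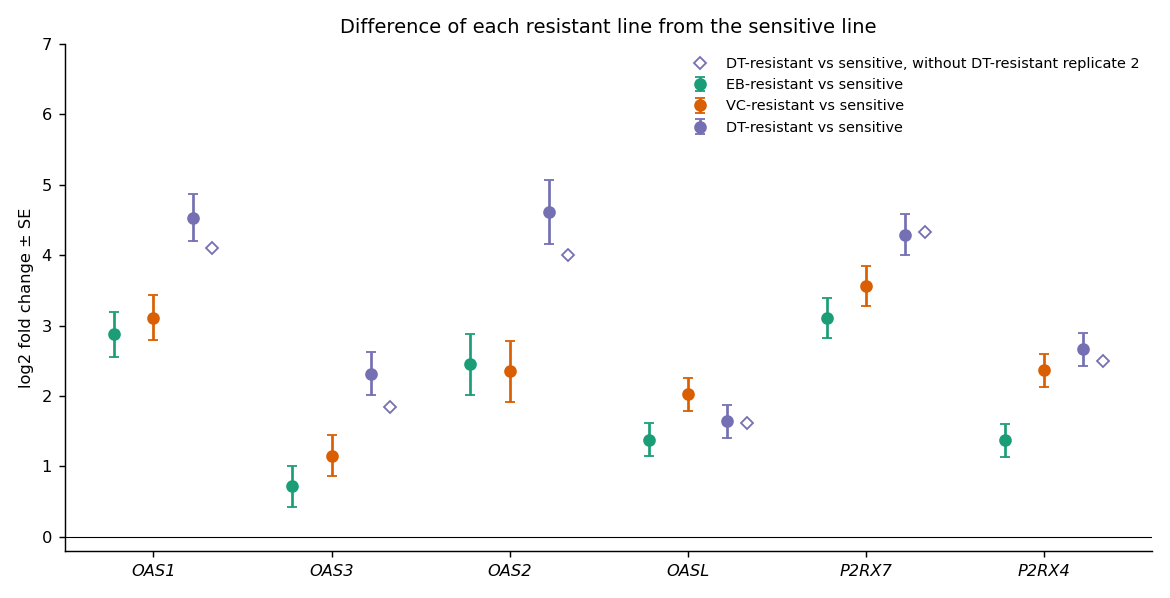
Log2 fold change against the sensitive line (vertical axis) of each gene in the 3 resistant lines; points are fitted values, whiskers are ± SE, and open diamonds are the DT-resistant value fitted without DT-resistant replicate 2. Leaving out that library lowers OAS2 from 4.62 to 3.997, OAS1 from 4.53 to 4.10 and OAS3 from 2.32 to 1.85, and moves P2RX7 from 4.29 to 4.33.

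Between the resistant lines, the synthetases and P2RX7 were lower in every EB-resistant and VC-resistant library than in every DT-resistant one. OAS2 was lower than in DT-resistant cells by a log2 fold change of -2.17 ± 0.40 (SE) in EB-resistant and -2.27 ± 0.40 in VC-resistant cells, OAS1 by -1.66 ± 0.28 and -1.42 ± 0.27, and OAS3 by -1.60 ± 0.29 and -1.17 ± 0.29. P2RX7 was lower by -1.18 ± 0.24 in EB-resistant and -0.73 ± 0.23 in VC-resistant cells. The synthetase values depend on DT-resistant replicate 2. Without it, the EB-resistant values were -1.55 for OAS2, -1.23 for OAS1, -1.13 for OAS3 and -1.22 for P2RX7. The VC-resistant values were then -1.64, -0.98, -0.69 and -0.75 in the same order. For P2RX4 the EB-resistant line stood apart, at -0.99 ± 0.22 against VC-resistant and -1.29 ± 0.22 against DT-resistant cells, while VC-resistant and DT-resistant cells differed by -0.30 ± 0.22. OASL was lower in EB-resistant than in VC-resistant cells by -0.64 ± 0.22, and the VC-resistant value was 0.38 ± 0.22 above the DT-resistant one.

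In EB-resistant against VC-resistant cells, 2 of the 6 genes were called lower (OASL and P2RX4), where 28.8% of all genes were. In EB-resistant against DT-resistant cells 5 of 6 were, all but OASL, where 28.8% of all genes were. In VC-resistant against DT-resistant cells, OAS1, OAS3 and OAS2 were called lower, 3 of 6, where 8.71% of all genes were. Leaving out EB-resistant replicate 5 or VC-resistant replicate 5 ended the call of OASL between EB-resistant and VC-resistant cells. Between VC-resistant and DT-resistant cells the call of OAS3 was lost without any 1 of the 3 VC-resistant libraries. With the replicate number as a block P2RX7 was past the threshold in this comparison as well, which made 4 of 6. The block called 3514 genes in either direction, against 2702 without it. DESeq2 also gave 4 of 6, with 3186 genes called. P2RX7 was past the threshold too when VC-resistant replicate 2 or EB-resistant replicate 6 was left out. Fitting only these 2 groups called 1913 genes and 2 of the 6, OAS1 and OAS2.

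Ratios of each library to the others of its group show how far the 6 genes varied together. In DT-resistant replicate 2, OAS1 was 2.09 times, OAS3 2.18 times and OAS2 2.64 times the mean of the other 2 libraries of its group. The same ratio was 1.08 for OASL, 0.947 for P2RX7 and 1.39 for P2RX4. Of 33 other interferon-stimulated genes, 15 were over 1.5 times the other libraries there, with a median ratio of 1.44, against 7.55% of all genes. In the remaining 11 libraries at most 4 of the 33 were over 1.5 times. In EB-resistant replicate 2 the ratios were 1.48 for OAS1, 1.30 for OAS3 and 1.67 for OAS2, and 1.28 for OASL, 1.10 for P2RX7 and 1.14 for P2RX4. In EB-resistant replicate 6 every ratio was below 1 except that of OASL, from 0.659 for P2RX7 to 0.850 for OAS1. P2RX7 varied most among the VC-resistant libraries, from 1.602 times the others in replicate 2 to 0.545 times in replicate 6. Without DT-resistant replicate 2 the OAS2 difference from the sensitive line went from 24.5-fold to 15.97-fold. Without it, the log2 fold change of OAS2 was -1.55 in EB-resistant and -1.64 in VC-resistant against DT-resistant cells. The part of this library's state in the OAS levels was not tested.

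**Figure D3:**
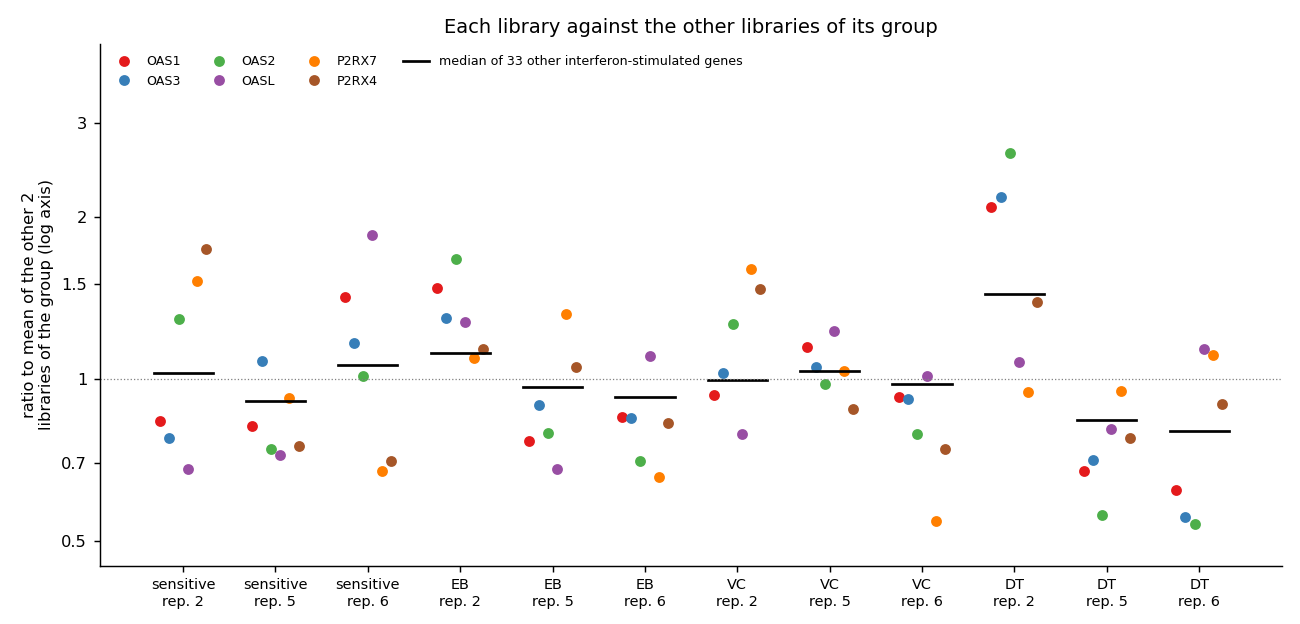
Ratio of each library to the mean of the other 2 libraries of its group (vertical log axis) for the 6 genes (coloured points) and the median of 33 other interferon-stimulated genes (black bars), for the 12 libraries along the horizontal axis. In DT-resistant replicate 2, OAS1 (2.09), OAS3 (2.18) and OAS2 (2.64) lie above the interferon-stimulated gene median of 1.44, and P2RX7 (0.947) lies below 1.

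Levels of different genes were compared per kb of the deposited gene length. In the sensitive line OAS3 was the most abundant of the 6 at 91.8 ± 12.9 (SD, n = 3) normalised counts per kb, followed by OASL at 23.6 ± 9.04, P2RX4 at 22.5 ± 7.81 and OAS2 at 19.2 ± 3.52, with P2RX7 at 8.87 ± 2.43 and OAS1 at 5.63 ± 1.20 lowest. By this length, OASL, P2RX4 and OAS2 did not differ beyond their spread. In the DT-resistant line OAS2 reached 473 ± 290 per kb beside 461 ± 228 for OAS3, which overlap, and without DT-resistant replicate 2 the means were 306 for OAS2 and 331 for OAS3. Of the 6 genes in that line, OASL was lowest at 73.7 ± 8.85. The order depends on the length used. An alternative chosen after the data were seen was the longest coding transcript in GENCODE 29. Per kb of it, P2RX7 was lowest in the sensitive line at 9.53 ± 2.62 and OAS1 was at 30.4 ± 6.47. P2RX4 was at 90.5 ± 31.3 there, beside 45.6 ± 17.5 for OASL and 45.6 ± 8.35 for OAS2.

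The genes around each run were compared with the sensitive line in the same way. The 5 nearest protein-coding genes with a row in the table were taken on each side of a run. Around OAS1, OAS3 and OAS2, 0 of the 9 tested neighbours rose and 5 fell in EB-resistant cells, 4 rose and 2 fell in VC-resistant cells, and 4 rose and 3 fell in DT-resistant cells (edgeR quasi-likelihood test with Benjamini-Hochberg adjustment, used for every adjusted p here). Of all genes, 28.5%, 27.6% and 29.8% rose and 27.6%, 27.4% and 29.3% fell in the EB-, VC- and DT-resistant lines. CFAP73, the nearest downstream gene with a row, had too few counts to be tested. PTPN11, which encodes the phosphatase SHP2 and lies 397 kb before OAS1, fell in each line, with a log2 fold change of -0.86 ± 0.07 (SE, adjusted p = 4.49e-08) in EB-resistant cells. TRAFD1, a negative regulator of innate immune signalling, rose in DT-resistant cells by 0.79 ± 0.10 (adjusted p = 1.06e-05). IQCD had the largest rise around this run, 1.41 ± 0.22 (adjusted p = 6.02e-05) in VC-resistant cells.

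Around OASL, P2RX7 and P2RX4, 0 of 10 tested neighbours rose and 6 fell in EB-resistant cells, and 1 rose in each of the other lines while 6 fell in VC-resistant and 7 in DT-resistant cells. The rise was that of MORN3, at 1.72 ± 0.66 (adjusted p = 0.0379) and 1.96 ± 0.64 (adjusted p = 0.0162). CAMKK2, a calcium-regulated kinase gene 3.59 kb from P2RX4, had log2 fold changes of 0.03 ± 0.09, 0.03 ± 0.09 and -0.06 ± 0.09, none past the threshold.

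**Figure D4:**
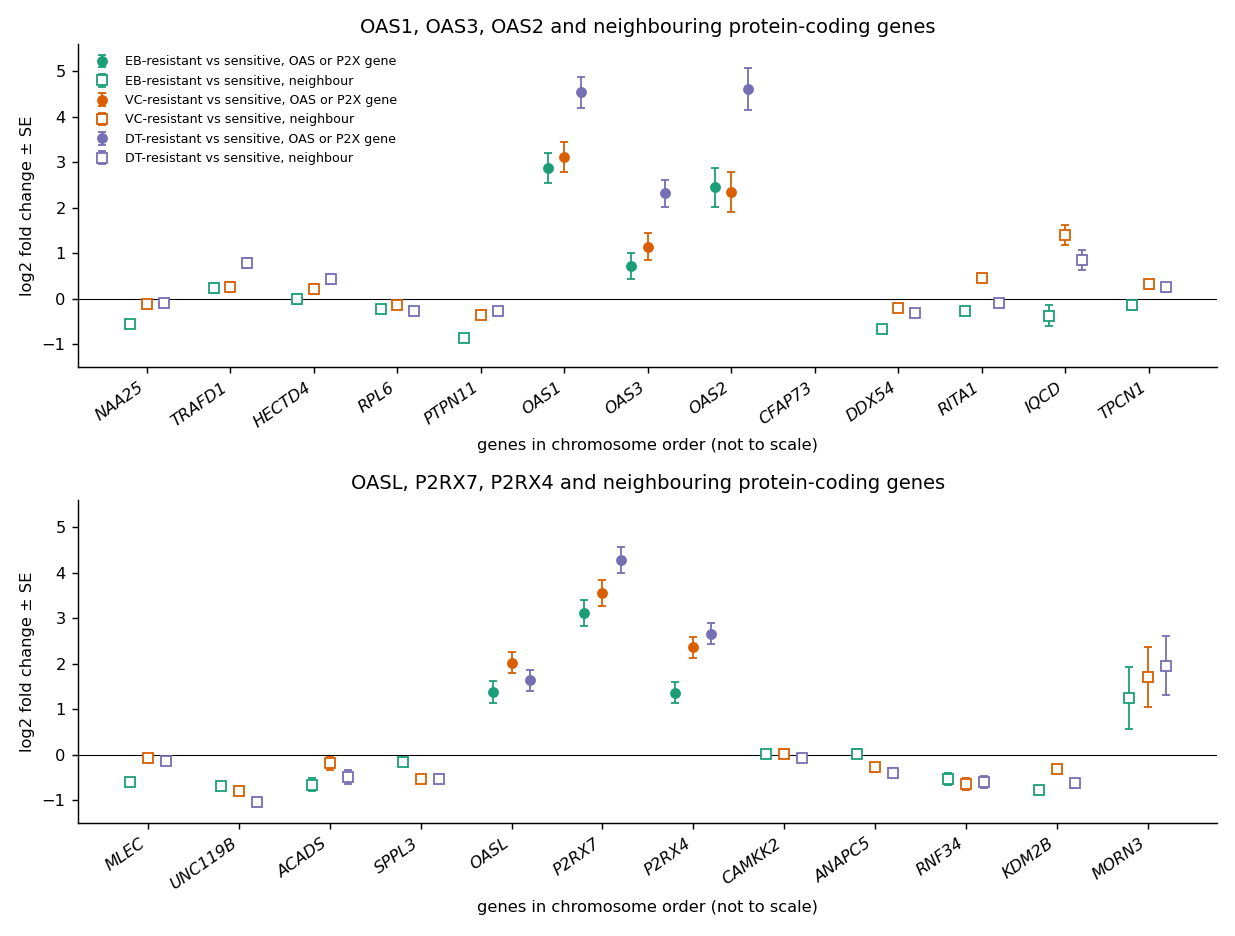
Log2 fold change against the sensitive line (vertical axis, whiskers ± SE) of the 6 genes (filled circles) and the neighbouring protein-coding genes reported here (open squares) in chromosome order along the horizontal axis, which is not to scale. CAMKK2, next to P2RX4, lies between -0.06 and 0.03; CFAP73 was not tested and has no point.

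Genes that act on oligoadenylates or the response to them moved in both directions. PDE12, which degrades oligoadenylates, fell in each line, with log2 fold changes of -1.29 ± 0.08, -0.62 ± 0.08 and -0.62 ± 0.08 in EB-, VC- and DT-resistant cells (adjusted p = 3.95e-09, 1.09e-05 and 9.16e-06). ABCE1, a ribosome recycling factor, fell, with values of -0.40 ± 0.10, -0.88 ± 0.10 and -0.82 ± 0.10 on the same scale (adjusted p = 0.00319, 3.75e-06 and 5.85e-06). Of the 5 tested genes of this axis beside the OAS family, 2 rose and 2 fell in EB-resistant, 2 and 3 in VC-resistant, and 2 and 2 in DT-resistant cells. Across all genes, 28.5% rose and 27.6% fell in EB-resistant, 27.6% and 27.4% in VC-resistant, and 29.8% and 29.3% in DT-resistant cells. The median log2 fold change of the 5 was -0.29, -0.23 and -0.07, beside medians of all genes within 0.01 of 0.

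Genes on the list for double-stranded RNA sensing moved in both directions. Beside sensors, this list holds adaptors, kinases and the DNA-sensing genes CGAS and STING1. Of 14 tested, 4 rose and 3 fell in EB-resistant, 5 and 5 in VC-resistant, and 6 and 2 in DT-resistant cells, with medians of 0.19, -0.0041 and 0.08. Among all genes, 28.5%, 27.6% and 29.8% rose and 27.6%, 27.4% and 29.3% fell in these lines. IFIH1, the gene of the sensor MDA5, rose from 778 ± 122 normalised counts to 1668 ± 180 (log2 fold change 1.09 ± 0.19, adjusted p = 0.000409), 1767 ± 149 (1.18 ± 0.19, adjusted p = 0.000256) and 2984 ± 987 (1.93 ± 0.20, adjusted p = 4.27e-06) in EB-, VC- and DT-resistant cells. DDX58, the gene of RIG-I, was low, at 27.1 ± 1.74 in sensitive cells, and rose to 56.7 ± 11.5 in VC-resistant (1.06 ± 0.26, adjusted p = 0.00296) and 69.2 ± 6.82 in DT-resistant cells (1.34 ± 0.26, adjusted p = 0.000399), with 31.1 ± 9.26 in EB-resistant cells, not past the threshold. TLR3, an endosomal sensor, rose in each line, most in EB-resistant cells (1.54 ± 0.18, adjusted p = 3.30e-06). EIF2AK2, the gene of the kinase PKR, fell in EB-resistant cells by 0.70 ± 0.08 (adjusted p = 3.74e-06), and its fall of 0.21 ± 0.08 in VC-resistant cells (adjusted p = 0.0406) did not pass when any 1 of 8 libraries was left out. The 5 falls in VC-resistant cells became 2 without sensitive replicate 5, sensitive replicate 6 or VC-resistant replicate 6, and 3 without VC-resistant replicate 2.

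Genes of interferon signalling rose more often than they fell. Of 18 tested, 8 rose and 2 fell in EB-resistant, 7 and 1 in VC-resistant, and 10 and 1 in DT-resistant cells, with medians of 0.50, 0.27 and 0.45. The shares of all genes in these lines were 28.5%, 27.6% and 29.8% for rises and 27.6%, 27.4% and 29.3% for falls. Without sensitive replicate 6 the rises in VC-resistant cells were 4. The 2 falls in EB-resistant cells became 1 without EB-resistant replicate 6, and the 1 fall in VC-resistant cells became 2 without VC-resistant replicate 6 or EB-resistant replicate 2. IRF7, a transcription factor of the interferon response, rose by 1.377 ± 0.18 (adjusted p = 8.21e-06), 0.50 ± 0.18 (adjusted p = 0.0257) and 1.77 ± 0.18 (adjusted p = 7.62e-07) in EB-, VC- and DT-resistant cells, and in VC-resistant cells it did not pass without sensitive replicate 6, VC-resistant replicate 5 or VC-resistant replicate 6. STAT2, a transcription factor activated by the interferon receptors, rose in EB-resistant (0.48 ± 0.10, adjusted p = 0.000592) and DT-resistant cells (0.56 ± 0.10, adjusted p = 0.00016). The VC-resistant value of STAT2 was 0.08 ± 0.10, not past the threshold. IRF9, a partner of STAT2 in the ISRE-binding complex, had 12 to 137 reads per library and rose in DT-resistant cells by 2.09 ± 0.44 (adjusted p = 0.000868). Its rise in EB-resistant cells of 1.44 ± 0.44 (adjusted p = 0.0125) did not pass without sensitive replicate 2 or EB-resistant replicate 2. Of the interferon genes on the list, IFNB1 had 0 to 2 reads and IFNE 0 to 4 reads in each library, too few to test.

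Other antiviral interferon-stimulated genes were mostly higher in the resistant lines. Of 33 tested, 23 rose and 2 fell in EB-resistant, 20 and 3 in VC-resistant, and 28 and 1 in DT-resistant cells, with medians of 0.85, 0.55 and 1.26. Over all genes, 28.5%, 27.6% and 29.8% rose and 27.6%, 27.4% and 29.3% fell in these lines. Between lines, 18 of the 33 were lower and 3 higher in EB-resistant than in DT-resistant cells (28.8% and 28.4% of all genes), and 23 were lower and 1 higher in VC-resistant than in DT-resistant cells (8.71% and 7.08%). Leaving out VC-resistant replicate 6 reduced the 23 to 15, and without DT-resistant replicate 2 there were 21 lower and 2 higher. MX1, an antiviral GTPase, had 163 ± 37.1 normalised counts in sensitive cells, beside 1512 ± 449.9 in the EB-resistant line, 1152 ± 135 in the VC-resistant line and 4931 ± 3114 in the DT-resistant line (SD, n = 3). Without DT-resistant replicate 2 the DT-resistant mean of MX1 was 3134. IFIT1, which binds foreign RNA ends, rose by 1.82 ± 0.15, 2.00 ± 0.15 and 1.80 ± 0.15 (adjusted p = 1.04e-07, 8.14e-08 and 1.53e-07), and EPSTI1 by 2.67 ± 0.23, 2.96 ± 0.23 and 4.11 ± 0.24 (adjusted p = 5.03e-07, 3.52e-07 and 1.82e-08). SAMD9L, a growth-restraining antiviral factor, rose most in EB-resistant cells, by 1.72 ± 0.12 (adjusted p = 9.51e-09). MX2 fell in each line (-0.38 ± 0.08, -0.86 ± 0.08 and -0.28 ± 0.08, adjusted p = 0.000445, 3.16e-07 and 0.0048), and IFIT5 fell in EB-resistant (-0.32 ± 0.09, adjusted p = 0.00525) and VC-resistant cells (-0.59 ± 0.09, adjusted p = 4.00e-05).

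**Figure D5:**
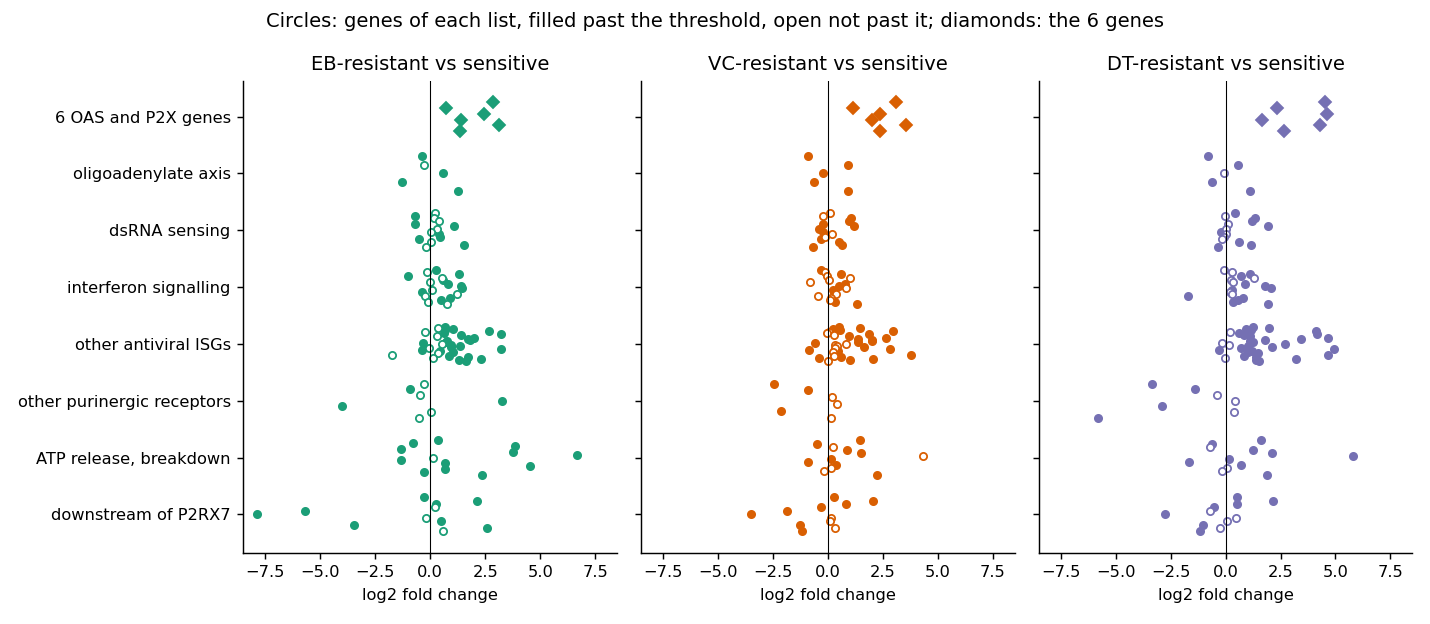
Log2 fold change against the sensitive line (horizontal axis) of the 6 genes (diamonds) and of each tested gene on 7 lists (circles, 1 row per list), with 1 panel per resistant line; filled circles are past the adjusted p threshold and open circles are not. SLC17A9 in VC-resistant and DT-resistant cells and P2RY2 in VC-resistant cells are left out because every library of that group had 0 reads; the other antiviral genes lie mostly to the right of 0, with 28 of 33 higher in DT-resistant cells.

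None of 7 other purinergic receptor genes tested rose in all 3 lines. Of these 7, 1 rose and 2 fell in EB-resistant cells, and 0 rose and 4 fell in VC-resistant and in DT-resistant cells, with medians of -0.49, -0.92 and -1.37. For all genes the shares were 28.5%, 27.6% and 29.8% higher and 27.6%, 27.4% and 29.3% lower in EB-, VC- and DT-resistant cells. P2RX6, a P2X subunit, rose in EB-resistant cells from 17.3 ± 5.86 to 165 ± 37.5 normalised counts (log2 fold change 3.25 ± 0.36, adjusted p = 2.16e-06) and had 23.6 ± 12.2 and 23.7 ± 10.9 in VC- and DT-resistant cells. P2RX5, another subunit, had 67.7 ± 8.64 in sensitive cells and passed the threshold in no line. P2RY1, an ADP receptor, fell, with log2 fold changes of -4.01 ± 0.33, -2.15 ± 0.28 and -2.90 ± 0.30 (adjusted p = 9.20e-08, 1.47e-05 and 1.11e-06) in EB-, VC- and DT-resistant cells. The adenosine receptor ADORA2B fell, with log2 fold changes of -0.92 ± 0.09, -0.92 ± 0.09 and -1.375 ± 0.09 (adjusted p = 7.90e-07, 1.26e-06 and 1.88e-08). P2RY2, an ATP and UTP receptor, had 25.6 ± 8.92 in sensitive cells and 0 reads in every VC-resistant library, at least 8.31-fold lower against a floor of 3 reads per library. P2RX1, P2RX2 and P2RX3 have no row in the table used.

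Genes on the list for ATP release and breakdown changed in both directions. This list also holds ADA, ADK, SLC29A1 and SLC29A2, which handle adenosine. Some of its tested genes had few reads. GJA1 had 0 in every sensitive library and at most 18 in any EB-resistant one, and CALHM2 had 1 to 4 in sensitive ones. Of 13 tested, 8 rose and 4 fell in EB-resistant, 6 and 3 in VC-resistant, and 7 and 3 in DT-resistant cells, with medians of 0.67, 0.23 and 0.16. Taking all genes, 28.5%, 27.6% and 29.8% rose and 27.6%, 27.4% and 29.3% fell in these lines. PANX1, an ATP release channel that works with P2RX7, rose by 0.69 ± 0.07, 0.38 ± 0.07 and 0.68 ± 0.07 (adjusted p = 1.06e-06, 0.000383 and 1.36e-06). NT5E, the surface enzyme that makes adenosine from AMP, was very abundant in sensitive cells and fell, with log2 fold changes of -1.32 ± 0.17, -0.90 ± 0.17 and -1.69 ± 0.17 (adjusted p = 2.87e-05, 0.000641 and 4.33e-06). ENTPD1, the gene of CD39, had 0 to 9 reads per library and was not tested. ENPP2, the gene of autotaxin, rose in each line, most in EB-resistant cells, from 26.5 ± 4.98 to 367 ± 91.8 normalised counts (3.77 ± 0.31, adjusted p = 7.67e-08).

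Downstream of P2RX7, the listed genes moved in both directions. Beside inflammasome genes, this list holds ANO6 and MYH9. Of 11 tested, 4 rose and 4 fell in EB-resistant, 3 and 5 in VC-resistant, and 3 and 4 in DT-resistant cells. Their medians were 0.22, 0.09 and -0.27. Shares of all genes were 28.5%, 27.6% and 29.8% for rises and 27.6%, 27.4% and 29.3% for falls in the same lines. CASP1, the gene of the caspase that cuts pro-interleukin 1 beta, rose from 322 ± 51.0 normalised counts to 1400.1 ± 109, 1339.5 ± 112 and 1443 ± 164 in EB-, VC- and DT-resistant cells (log2 fold changes 2.11 ± 0.13, 2.06 ± 0.13 and 2.16 ± 0.13, adjusted p = 2.59e-09, 7.65e-09 and 3.59e-09). NLRP3 fell from 1869.5 ± 283 to 170.1 ± 20.98, 777 ± 63.2 and 912 ± 276 (-3.47 ± 0.21, -1.27 ± 0.19 and -1.04 ± 0.19, adjusted p = 1.73e-08, 9.09e-05 and 0.000357). IL1B fell from 34273 ± 5887 normalised counts to 144 ± 86.3, 3005 ± 713 and 5026 ± 3048 (-7.90 ± 0.70, -3.51 ± 0.56 and -2.78 ± 0.54, adjusted p = 1.23e-05, 0.000621 and 0.00184). Without EB-resistant replicate 2 its EB-resistant mean was 95.15 and its log2 fold change -8.49. The 5 falls in VC-resistant cells became 3 without sensitive replicate 2 or VC-resistant replicate 2.

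Across the 12 libraries, the 3 genes whose log2 CPM followed each of the 6 most closely were listed. These correlations are over 12 libraries that fall into 4 groups, and are given as a description. The 6 genes themselves were left out of the candidates, so none of them could be listed for another. EPSTI1 (Pearson r = 0.99), SLC6A6 (0.99) and PSMB9 (0.99) were nearest to OAS1, DTX3L (0.99), LINC02541 (0.99) and MX1 (0.99) to OAS2, and NTNG2 (0.99), HLA-F (0.98) and IFI44L (0.97) to OAS3. EPSTI1, DTX3L, MX1 and IFI44L are on the list of interferon-stimulated genes above, and HLA-F has near copies whose reads may be shared. Nearest to OASL were TESPA1 (0.97), SIKE1 (0.97) and MRPS27 (0.96). Nearest to P2RX7 were LRSAM1 (0.99), VPS8 (0.99) and OCLN (0.99), and nearest to P2RX4 were LAMP2 (0.99), PTPRM (0.99) and S1PR2 (0.99), of which LAMP2 encodes a lysosomal membrane protein. None of the 9 genes nearest to OASL, P2RX7 and P2RX4 is on that list. The list holds only 33 of the 17114 tested genes, so nothing is read from its absence there. With the 6 genes, all on chromosome 12, left out of the candidates, TESPA1 was the only one of the 18 on that chromosome.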

How the data were processed

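Gene-level read counts of the 12 libraries were deposited by the authors as whole numbers. The authors' normalised counts, deposited beside them, are a signal per gene that matched each count scaled by 1 median-of-ratios factor per library within 0.05. Per the submitters' processing notes, the tools were bcl2fastq 2.20.0, STAR 2.7.10b, featureCounts 2.0.1 and DESeq2 1.38.3, and the build was hg38. Strand setting and annotation release: not given in the sources used here. The members and gene lists were chosen with earlier results of these data known.

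From the counts, edgeR 4.0.16 (R 4.3.3) fitted 1 quasi-likelihood model over the 4 groups and 12 libraries (filterByExpr, TMM, robust, 8 residual degrees of freedom). Benjamini-Hochberg adjustment covered 17114 genes, with a threshold of 0.05. SE is that of the log2 fold change. Named genes are the members, up to 3 called genes per list, direction and line by adjusted p, a fixed set of sensors, receptors and inflammasome genes, the 5 nearest protein-coding genes on each side and the 3 most correlated genes by log2 CPM (prior count 2). Alternatives were DESeq2 size factors, DESeq2 1.42.0, no filter, a replicate block, only the groups compared and each library left out. Between VC-resistant and DT-resistant libraries of the same number, deviations from group means correlated (r over genes 0.337, 0.151 and 0.195, each above 0.1), which pairs these 2 groups by number. Other pairs of groups did not meet this. In simulated counts for EB-resistant and sensitive libraries (16337 genes), 24 of 68 genes changed 1.5-fold, 53 of 66 changed 2-fold and 66 of 66 changed 4-fold were recovered, and 7 unchanged genes were called. The simulation gave every gene the same dispersion and fitted only these 2 groups, so its rates need not hold for the reported tests. Promoter windows are from RefSeq (GRCh38.p14). P values measure the spread between experiments with 1 line per drug pair. Some genes within the rule for named genes are not reported here.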

Additional observations from a re-analysis of the deposited data

Results flagged for a closer look

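Some pathway genes were called in opposite directions in EB-resistant cells and in another line, each set against the same sensitive libraries. For those given here, the difference between the 2 lines itself passed the threshold (edgeR quasi-likelihood test, Benjamini-Hochberg adjustment). Of all genes, 28.5%, 27.6% and 29.8% rose and 27.6%, 27.4% and 29.3% fell in EB-, VC- and DT-resistant cells. The share of all genes called in opposite directions was not counted, so nothing is read from how many pathway genes were. ENPP1, which hydrolyses ATP outside the cell, fell by 1.35 on the log2 scale in EB-resistant cells and rose by 0.86 in VC-resistant and 1.24 in DT-resistant cells, a difference between lines of -2.21 (adjusted p = 3.02e-07) and -2.59 (adjusted p = 9.82e-08). IFNGR2, a chain of the interferon gamma receptor, fell by 1.03 in EB-resistant and rose by 0.69 in DT-resistant cells, a difference of -1.72 (adjusted p = 2.03e-09). DHX36, an RNA helicase, rose by 0.57 in EB-resistant and fell by 0.23 in VC-resistant cells, a difference of 0.80 (adjusted p = 5.79e-08). IFNAR1, a chain of the type I interferon receptor, rose by 0.27 in EB-resistant and fell by 0.32 in VC-resistant cells, a difference of 0.59 (adjusted p = 3.72e-05). JAK2 fell by 0.37 in EB-resistant and rose by 0.29 in VC-resistant cells, a difference of -0.67 (adjusted p = 7.07e-05). The calls of IFNAR1 in EB-resistant and JAK2 in both lines were lost when 1 library was left out.

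ANO6, a lipid scramblase gene, fell by 0.30 in EB-resistant and rose by 0.27 in VC-resistant and 0.52 in DT-resistant cells, differences of -0.57 (adjusted p = 1.47e-05) and -0.82 (adjusted p = 4.53e-07). SLC17A9, the vesicular nucleotide transporter that loads ATP into vesicles, had 147 to 215 reads per sensitive library and 277 to 308 per EB-resistant library, and 0 reads in each VC-resistant and DT-resistant library. Against a floor of 3 reads per library it was at least 57.1-fold lower than sensitive in VC-resistant and at least 57.4-fold lower in DT-resistant cells. The bounds between EB-resistant and these lines were 6.52 (adjusted p = 1.16e-08) and 6.52 (adjusted p = 1.27e-08) on the log2 scale.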

How the results depend on the processing

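Genes called at the threshold numbered 9411 to 10116 in the 5 comparisons other than VC-resistant against DT-resistant, and none of these counts moved by over 1.5 times under any alternative or when any library was left out. For VC-resistant against DT-resistant the count was 2702, and leaving out each library gave 1722 (without VC-resistant replicate 6) to 2879 (without sensitive replicate 2). The cause was not tested. Pathway genes called in that comparison numbered 39, and 26 to 40 with a library left out. With the replicate number as a block the count was 3514 between VC-resistant and DT-resistant, the groups that the numbers pair, and 44 pathway genes were called. Of the 6 genes described, P2RX7 gained a call there under the block and no other member's call changed. Of the 612 log2 fold changes of the members under the alternatives, 608 moved by less than the spread between libraries (1 SD). The other 4 moved by more, all of them without DT-resistant replicate 2, and were OAS2 in DT-resistant against sensitive cells (3.997) and, in VC-resistant against DT-resistant cells, OAS1 (-0.98), OAS3 (-0.69) and OAS2 (-1.64). The difference of OAS2 between EB-resistant and VC-resistant cells, 0.10, changed sign under 2 alternatives. For the named genes 3463 values kept their direction and side of the threshold, 74 lost the call and 24 gained it. The level per kb moved for 21 of 24 gene and group pairs with the other length, a choice made after seeing the data. With a library of its group left out, also tried after seeing the data, 72 of 72 levels per kb moved by less than 1 SD.

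With 3 libraries a group, genes with small changes are called less often than large ones in the simulated counts, and a gene that misses the threshold is not shown to be unchanged.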
